A study of Bos taurus with 8 samples.

Results

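The trophectoderm is the outer layer of the blastocyst, from which the placenta forms, and the genes described here are 9 transcription factors that act in it: CDX2, GATA2, GATA3, TFAP2C, TFAP2A, ELF5, TEAD4, HAND1 and EOMES. They were chosen by name for their known role, and their probes were found through the RefSeq accession that the array gives each probe. Of the 12603 genes that could be named on the array, 8 were members of this set, since no named probe matched TEAD4. These 8 genes had 22 probes. EOMES was not well above background on any array, and the other 7 genes were tested.

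Embryo-derived stem-like cells (eSLCs) are colony-forming cells grown from bovine blastocysts whose zona had been removed. RNA of HanWoo cattle cells was hybridized with 1 dye to 8 Agilent bovine oligo microarrays, 1 per cell sample. The IVP-eSLC lines I2 (passage 35) and I9 (passage 30) came from in vitro produced embryos, the NT-eSLC lines N2 (passage 36) and N7 (passage 30) from embryos made by somatic cell nuclear transfer, and the PA-eSLC lines P1 (passage 31) and P4 (passage 36) from parthenogenetic embryos. All 6 lines grew on inactivated murine STO feeder cells in 3i medium, which held the MEK inhibitor PD184352 at 0.8 μM, the FGF receptor inhibitor SU5402 at 2 μM and the GSK3 inhibitor CHIR99021 at 3 μM. Somatic cells (SCs) at passages 5 and 10 grew in serum medium without the inhibitors, so embryo origin, medium and feeder cannot be told apart in any comparison of eSLCs with SCs. The donor cells of the NT embryos came from ear skin, whereas the tissue of the SCs is not given in the sources used here. Whether feeder cells were removed before RNA extraction is not given there either.

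Values are background-subtracted signals divided by the 75th percentile of their array, which was set to 1000, and are called normalized signals here. A signal was well above background if the scanner software marked it so. Signals under a common floor of 13.3 were raised to it before log2 values were taken. Set against the dimmest signal that was still well above background, the 75th percentile was 75.3 to 136.3 times as bright, and 71.19% to 76.71% of spots were well above background. Slide 1 carried both IVP lines, N7 and SC P5, and slide 2 carried both PA lines, N2 and SC P10. The labels do not say that the arrays of a condition, SC P5 and SC P10 included, were independent cultures beyond the line names, and p-values then measure the spread between these samples. Arrays of a condition that were all raised to the floor add no spread to a gene's p-value. In SCs, the fibroblast markers were well above background for 19 of 19 genes with a probe, and in the eSLC lines for 16 to 17. Their summed normalized signal was 975291 to 1211357 in SCs against 6830 to 28114 in the eSLC lines.

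These factors act at different steps of the lineage. The transcription factor TEAD4 receives the position signal of the Hippo pathway and switches on CDX2 and GATA3 in the outer cells of the mouse embryo, CDX2 holds the trophectoderm fate, and GATA2, GATA3, TFAP2C and TFAP2A open and hold the trophoblast program. ELF5 and EOMES are best known from the trophoblast stem cells of the mouse, and HAND1 from trophoblast differentiation. In cattle the trophectoderm grows into a long filament before attachment and secretes interferon tau and pregnancy-associated glycoproteins.

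Of the 7 factors tested, 5 were called higher in eSLCs than in SCs (CDX2, GATA2, GATA3, TFAP2C and ELF5) and 0 were called lower. A gene was called at a Benjamini-Hochberg adjusted p under 0.05 over all 10958 genes tested, provided that it differed 2-fold or more. Here eSLCs were taken as the mean of the 3 origin means. In the same comparison 19.7% of all genes tested were called higher and 15.7% lower. The median log2 difference was 5.55 over the 7 factors and 0.23 over all genes tested. The same 5 factors were called in each origin alone. The methods' t-test after adjustment called 3 factors higher for IVP and 1 for NT, and the values that the authors normalized gave 4 for IVP, 4 for NT and 3 for PA. In each origin 17.7% (IVP), 15.8% (NT) and 20.3% (PA) of all genes were called higher in the limma fit and 14.6%, 13.9% and 14.9% lower. These comparisons share the SC arrays. All 6 eSLC arrays lay above both SC arrays for these 5 factors, as they did for 34% of all genes tested, and 0 factors had all 6 below both SC arrays, against 23.6% of all genes. CDX2 and ELF5 entered the test through the eSLC arrays alone, so that they had to differ. So did every gene below whose higher level is given as a bound ("at least"). Genes below that are said to have entered in this way share this limit. EOMES and TEAD4 are outside these counts. In RNA of whole cultures, fewer cells that express a gene and less RNA per cell cannot be told apart.

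**Figure D1:**
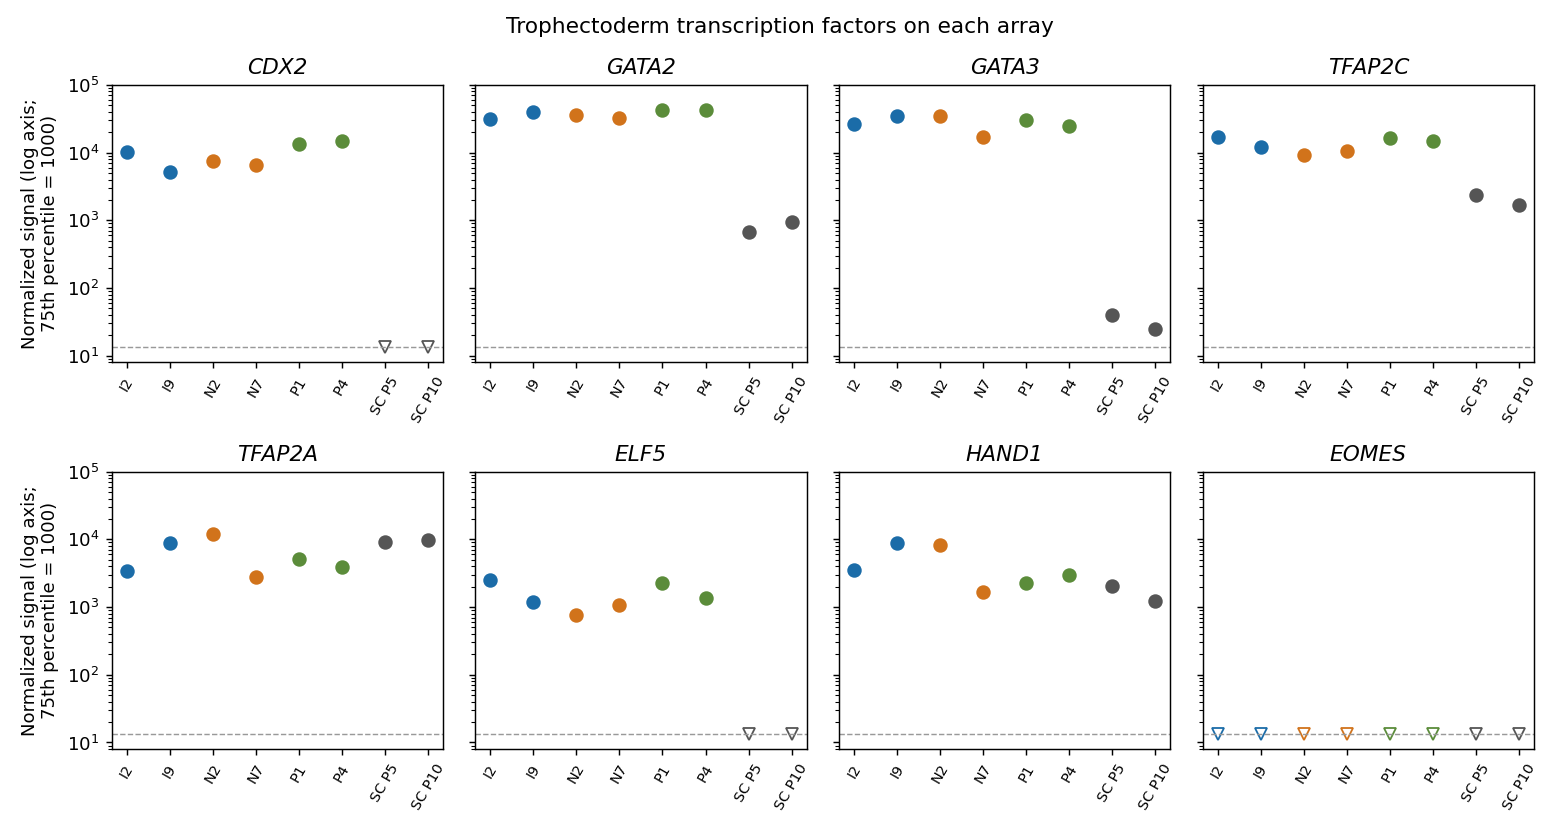
Normalized signal (log axis, 75th percentile of each array at 1000) of the brightest probe of 8 trophectoderm factors on each of the 8 arrays, with IVP-eSLC lines in blue, NT-eSLC in orange, PA-eSLC in green and SC in grey. The dashed line is the floor of 13.3, and open triangles are signals below it, drawn at it. CDX2 and ELF5 are below the floor in both SC arrays, TFAP2A and HAND1 overlap between eSLCs and SCs, and EOMES is below the floor on all 8 arrays.

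CDX2, the caudal-type homeobox factor that specifies the trophectoderm, was, with ELF5, 1 of the 2 factors measured in every eSLC line and not in SCs. Its normalized signal was 10374 in I2, 5183 in I9, 7423 in N2, 6567 in N7, 13312 in P1 and 14887 in P4, against 1.297 (SC P5) and 0.331 (SC P10) in somatic cells. Every eSLC line was well above background, and neither SC array was. The log2 difference was 9.40 (SE 0.277, adjusted p = 7.67e-06), and with the SC side taken as a bound the eSLC level was at least 1064-fold higher. Such a bound sets the mean of the eSLC arrays against the lowest signal well above background on each SC array. Where the probe's own signal was higher, that was taken. A bound holds for the brightest probe and this background subtraction only. The CDX2 difference was 189-fold with the mean of its probes and 229-fold with normexp background correction. For CDX2 both SC arrays were raised to the floor, so they added no spread to the SE or the p-value. This holds for every gene whose SC signals both lay under the floor. All 3 probes of CDX2 were called higher, with log2 differences of 9.40, 8.52 and 4.76, and averaging the probes gave 7.56. With normexp background correction the log2 difference was 7.84.

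GATA2 and GATA3 are zinc-finger factors of trophoblast genes, and both were high in every eSLC line. GATA2 gave 31518 in I2, 40370 in I9, 36303 in N2, 32284 in N7, 42287 in P1 and 41942 in P4. SCs gave 669.1 at passage 5 and 945.3 at passage 10. It was well above background in SCs as well, and the difference was 46.8-fold (log2 5.55, SE 0.2, adjusted p = 1.42e-05). GATA3 gave 26519 in I2, 35339 in I9, 34337 in N2, 17104 in N7, 30132 in P1 and 24423 in P4. Its SC signals, 39.49 at passage 5 and 25.05 at passage 10, were close to the floor but well above background, and the difference was 865-fold (log2 9.76, SE 0.336, adjusted p = 1.25e-05). The second GATA3 probe differed 45.6-fold, the mean of both probes 198-fold, and with normexp background correction the brighter probe differed 371-fold. Both probes of GATA3 and 3 of the 4 probes of GATA2 were called, and the mean of the GATA2 probes differed 17.1-fold. The dimmest GATA2 probe, at 11.53 to 78.03 in the eSLC lines and 3.02 and 3.39 in SCs, differed by 0.64 on the log2 scale (adjusted p = 0.378).

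The 2 AP-2 factors of the set behaved differently from each other. TFAP2C, AP-2 gamma, was 16958 in I2, 12141 in I9, 9294 in N2, 10692 in N7, 16247 in P1 and 14812 in P4, with 2384 in SC P5 and 1664 in SC P10. Thus by its brightest probe it was well expressed in SCs, and the eSLC level was 6.55-fold higher (log2 2.71, SE 0.221, adjusted p = 0.000287). The second TFAP2C probe ran from 27.05 in N7 to 65.42 in P1. In SCs it gave 10.35 and 11.45, under the floor but well above background. That probe differed 3.36-fold, and both probes were called. TFAP2A, AP-2 alpha, which is also known from skin and neural crest, was 3354 in I2, 8941 in I9, 11981 in N2, 2753 in N7, 5061 in P1 and 3868 in P4. In SCs it was 9013 at passage 5 and 9771 at passage 10, and N2 alone was above them. The log2 difference of -0.86 (SE 0.625, adjusted p = 0.299) was not called, and neither were the 2 probes. In the fit with only the PA and SC arrays, PA-eSLCs were called lower (log2 -1.08, adjusted p = 0.0221), which the fit over all arrays did not call (adjusted p = 0.295). Without N7 the log2 difference of NT-eSLCs from SCs turned from -0.71 to 0.35.

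ELF5, an ETS factor of trophoblast stem cells, was 2552 in I2, 1170 in I9, 759.3 in N2, 1074 in N7, 2285 in P1 and 1377 in P4. In SCs it was not well above background, with signals of -1.498 and 0.361. The log2 difference was 6.72 (SE 0.363, adjusted p = 5.9e-05), the eSLC level was at least 167-fold higher, and both probes were called (the second at 5.87). With normexp background correction the log2 difference was 5.25. In the table of values that the authors normalized themselves, the same probe is listed at 1450 in SC P5 and 1524 in SC P10, and the other ELF5 probe at 4.67 and 2.31. Tested on that table the log2 difference of ELF5 was 1.84 (adjusted p = 0.0335), and it was not called in IVP-eSLCs (1.59) or PA-eSLCs (1.70). For 10172 of 43653 probes, among them the used probes of GATA2, GATA3, TFAP2C, ELF5 and HAND1, that table followed the scanner signals less closely (Spearman's rho 0.81 to 0.882 per array) than for the other probes (0.989 to 0.996). For these probes SC P5 and SC P10 lay within 5% of each other in 99% of cases in that table and in 16.8% in the scanner signals. The cause was not tested.

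HAND1, a basic helix-loop-helix factor of trophoblast giant cells, was 3472 in I2, 8929 in I9, 8218 in N2, 1666 in N7, 2288 in P1 and 2980 in P4. SCs gave 2024 at passage 5 and 1228 at passage 10, so that on this brightest probe N7 was inside their range and the other 5 lines above it. The log2 difference of 1.26 (SE 0.674, adjusted p = 0.174) was not called. Without N7 it was 1.64 and was called (adjusted p = 0.0386). The log2 differences of its 5 probes ran from 1.25 to 2.72, and 0 of 5 were called. On the second brightest probe every eSLC line lay above both SC arrays, with N7 at 50.44 against 40.79 and 35.84. The same held for dimmer probes with N7 at 19.13 against 13.87 and 14.01, and at 30.02 against 25.1 and 20.59. On the dimmest probe N7 (8.068) and both SC arrays lay under the floor.

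EOMES, the T-box factor of mouse trophoblast stem cells, had 2 probes, and neither was well above background on any of the 8 arrays. The brighter one ranged from -1.02 in N2 to 3.36 in N7 and was -0.591 and 0.286 in SCs. No fold change was taken. Thus at this signal over background EOMES was not detectable in eSLCs or SCs.

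**Figure D2:**
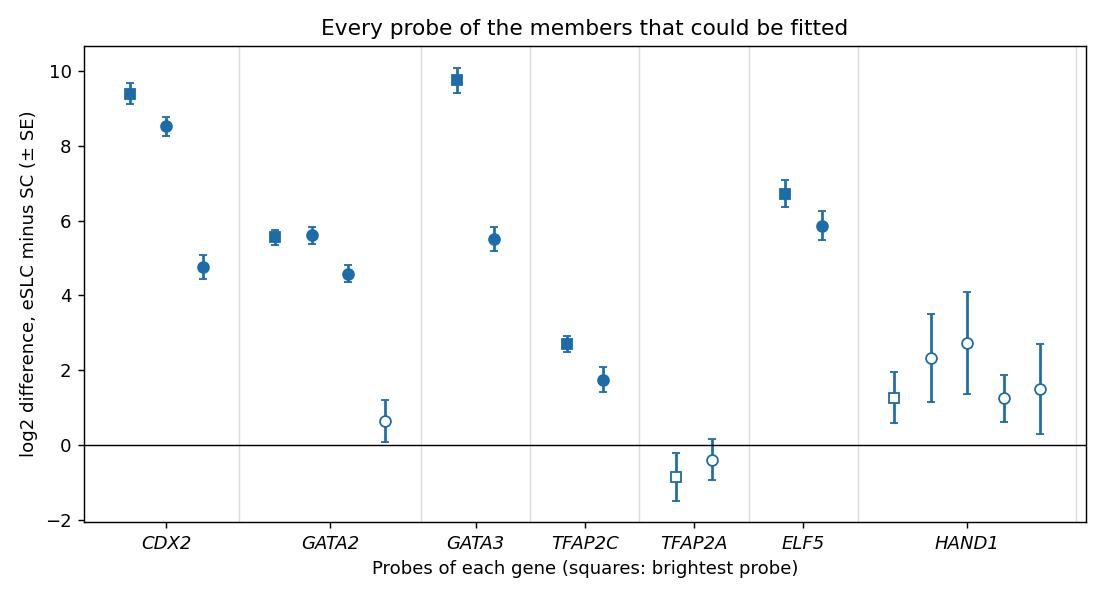
The log2 difference between eSLCs and SCs (± SE, limma) for the 20 probes of the 7 tested factors, grouped by gene, with the brightest probe as a square, filled where called and open where not. The probes of CDX2, GATA3, TFAP2C and ELF5 are all called, 3 of 4 are for GATA2, and the probes of TFAP2A and HAND1 are not.

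Each factor kept its sign on both slides. With the eSLC lines of a slide set against the SC array of the same slide, the log2 difference on slides 1 and 2 was 9.06 and 9.74 for CDX2, 5.69 and 5.41 for GATA2, 9.32 and 10.19 for GATA3, 2.45 and 2.97 for TFAP2C, and 6.79 and 6.65 for ELF5. It was -1.05 and -0.66 for TFAP2A and 0.88 and 1.64 for HAND1. Each slide held 3 eSLC arrays and 1 SC array.

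To compare embryo origins, NT- and PA-eSLCs were set against IVP-eSLCs. None of the 7 factors was called between NT- and IVP-eSLCs, between PA- and IVP-eSLCs or among the 3 origins by limma's moderated F test, and of all 10958 genes 0% were called in any of these. At an unadjusted p under 0.05 limma gave 306, 568 and 586 genes. Among the factors, CDX2 had the largest PA-IVP difference in favour of PA: both PA lines (13312 and 14887) were above both IVP lines (10374 and 5183), by 0.94 on the log2 scale (SE 0.339, unadjusted p = 0.0324, adjusted p = 0.852). The F test over the 3 origins gave an adjusted p of 0.791 for CDX2. GATA2 was higher in both PA lines by 0.24 (adjusted p = 0.901) and HAND1 lower in both by 1.09 (log2 -1.09, adjusted p = 0.857). TFAP2C and ELF5 were lower in both NT lines than in both IVP lines, with log2 differences of -0.53 and -0.94 (adjusted p = 1 for both). Arrays of the 2 origins lay apart for 3 of 7 factors in PA and 2 of 7 in NT, and for 35.2% and 23.3% of all genes. The IVP lines were on slide 1 and the PA lines on slide 2, while NT-eSLCs and SCs had 1 array on each. With the slide as a block the PA-IVP difference was 0.85 for CDX2 (SE 0.521, adjusted p = 0.934), turned to -0.09 for GATA2 and was -1.88 for HAND1 (SE 1.18, adjusted p = 0.934). The NT-IVP differences were then -0.35 for TFAP2C and -0.81 for ELF5.

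**Figure D3:**
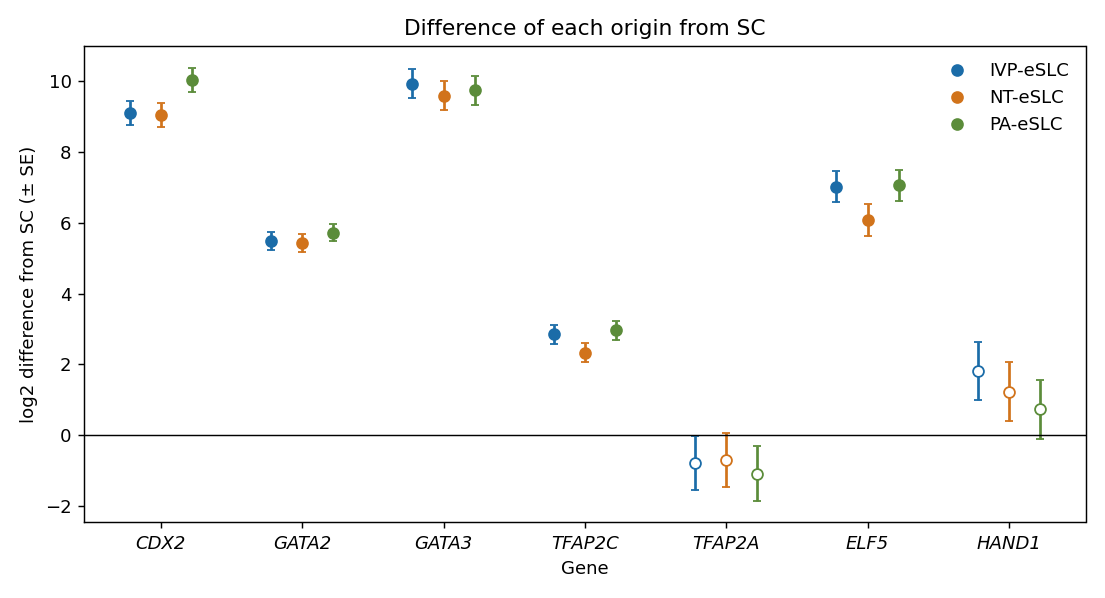
The log2 difference from SC (± SE, limma over all 8 arrays) of each tested factor in IVP-, NT- and PA-eSLCs, filled where called and open where not. Within each factor the 3 origins lie closer to each other than to 0 for CDX2, GATA2, GATA3, TFAP2C and ELF5, and the open points of TFAP2A and HAND1 have the widest errors.

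The factors differed in how much they varied among the eSLC lines. By the brightest probe of each factor GATA2 was the steadiest, with a span of 0.42 on the log2 scale between its lowest and highest line. Of the 9872 genes well above background on all 6 eSLC arrays, 92.1% had at least that span. The span was 0.87 for TFAP2C, 1.05 for GATA3, 1.52 for CDX2, 1.75 for ELF5, 2.12 for TFAP2A and 2.42 for HAND1, against a median of 0.937 over those genes. HAND1 thus differed 5.36-fold between I9 and N7 and TFAP2A 4.35-fold between N2 and N7. At least that span was found in 8.47% of the genes for HAND1 and in 11.7% for TFAP2A. The span depended on the probe. The second brightest probe of GATA2 ran from 3246 in I2 to 5934 in P4, and that of HAND1 from 50.44 in N7 to 772 in N2. That of TFAP2A ran from 110.2 in N7 to 428.8 in N2. The SD within origins was 1.05 for TFAP2A and 1.1 for HAND1 on the log2 scale, since in IVP and in NT 1 line was high and the other low.

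Of the 7 factors 5 followed 1 of 2 line patterns. I9 and N2, lines of different origin and slide, were the 2 highest lines for TFAP2A, HAND1 and GATA3, and N7 was the lowest for all 3. I9 and N2 were the 2 highest lines for 14.3% of all 9872 genes, and N7 the lowest for 29.3%. I2 and P1 were the 2 highest lines for TFAP2C and ELF5, as for 11.4% of all genes. Over the 6 lines Pearson's r of log2 signals was 0.954 for TFAP2C with ELF5, 0.889 for TFAP2A with HAND1, 0.864 for GATA3 with TFAP2A and 0.832 for GATA3 with HAND1. TFAP2A and ELF5 gave -0.529. These values describe 6 lines that share 2 slides, with no test.

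**Figure D4:**
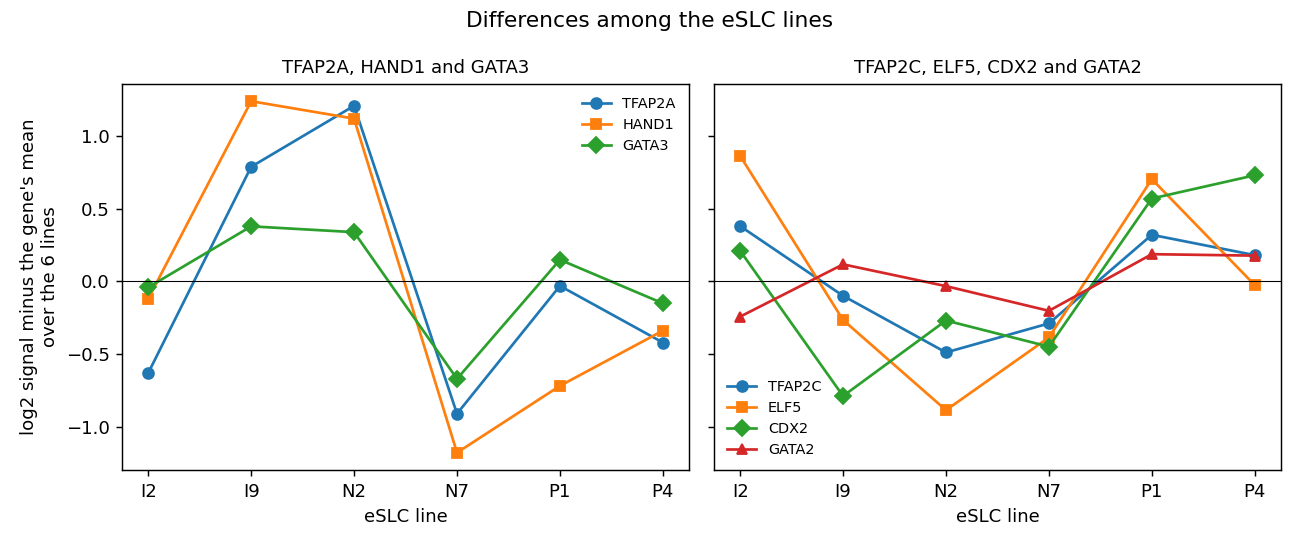
Log2 signal of each tested factor minus its mean over the 6 eSLC lines, with TFAP2A, HAND1 and GATA3 on the left and TFAP2C, ELF5, CDX2 and GATA2 on the right; lines join the points of a gene only to guide the eye. On the left I9 and N2 are highest and N7 lowest, and on the right I2 and P1 are high for TFAP2C and ELF5 while GATA2 stays near 0.

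Some fibroblast markers were also highest in I9 and N2. The summed signal of the fibroblast markers was 28114 in N2 and 18293 in I9, the 2 highest eSLC lines, and 6830 to 10229 in the other 4. ACTA2, smooth muscle actin, made up 16040 of the sum in N2 and 6717 in I9. I9 and N2 were the 2 highest lines for 4 of the 14 fibroblast markers well above background on all 6 eSLC arrays (ACTA2, COL1A2, S100A4 and VIM), and I2 and P1 for 2 of 14 (COL3A1 and LOX). Over all 9872 genes the shares were 14.3% for I9 and N2 and 11.4% for I2 and P1. VIM, an intermediate filament of mesenchymal cells, was 4410 in N2 and 3765 in I9, and 780.4 to 3152 elsewhere. Of the genes with a span of at least 1 on the log2 scale, TPM1 was the most like TFAP2A (r = 0.999) and was 3667 in I9 and 5018 in N2 but 51801 and 57088 in SCs. ANGPTL2 was the most like HAND1 (r = 0.998) and was 233.7 in I9 and 222.4 in N2, with 4969 and 2967 in SCs. Some other close genes were low in SCs. RAMP1, like TFAP2A (r = 0.998), was 132.4 in I9 and 215.4 in N2, with 2.363 and -0.883 in SCs. LRRC3B, like HAND1 (r = 0.989), was 1175 in I9 and 899.8 in N2, with 0.051 and -1.821 in SCs. AGMO, also like HAND1, was 533.5 and 549, with 120.3 and 160.6 in SCs. MAGED1, also like TFAP2A, was high in SCs (52998 and 64061). What part fibroblast-like cells have in the line pattern of TFAP2A and HAND1 was not tested.

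The other genes most like these factors were named by the same rule, the 3 highest r over 6 lines among 4504 genes. They were RAMP1 and MAGED1 for TFAP2A, AGMO and LRRC3B for HAND1, CA2, CELA1 and SNHG12 for GATA3, NUDT4, SMU1 and ZFYVE19 for CDX2, and ABAT, GM2A and MAP2K5 for ELF5. All had an r of at least 0.988, and over 6 points so high an r is easily reached among 4504 genes. CA2, the carbonic anhydrase closest to GATA3, ran from 2028 in N7 to 26016 in N2. ABAT, the enzyme of GABA breakdown closest to ELF5, ran from 68.52 in N2 to 443.7 in I2. GATA2 and TFAP2C spanned less than 1 on the log2 scale and were not compared.

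The paralogs of the factors share their DNA-binding domains. Of 18 paralogs 14 had a probe and 10 were tested. Over all genes tested 19.7% were called higher and 15.7% lower, which stands beside this list and those below. Of the 10 paralogs, 4 were called higher in eSLCs and 0 lower. Their median log2 difference was 1.20 against 0.23 over all genes tested. Without SC P5 the number called was 1, and without SC P10 it was 2. Of the 4 called, EHF and GATA5 entered the test through the eSLC arrays alone. ELF3, an epithelial ETS factor, was 25743 in N7 to 101573 in P1, with 2441 and 1634 in SCs, and was 23.7-fold higher (log2 4.57, SE 0.332, adjusted p = 0.00019). EHF, another epithelial ETS factor, was 27.13 to 350.3 in the eSLC lines and not well above background in SCs, and was at least 15.4-fold higher (adjusted p = 0.0122). GATA5 was at least 12.2-fold higher (33.7 to 316.2, adjusted p = 0.0152), and ELF1 2.75-fold higher (adjusted p = 0.0349). TFAP2B was 62.02 to 88.85 against 36.23 and 42.69 in SCs, just under the 2-fold limit at 1.91-fold. TBXT and TBR1, the T-box relatives of EOMES, were not well above background on any array, and neither was TFAP2D.

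TEAD4 itself could not be followed, so the Hippo pathway was described through its other members. Of 19 genes 11 had a probe and were tested. Over all genes tested 19.7% were called higher and 15.7% lower. Of the 11, 2 were called higher and 0 lower, and the median log2 difference was 0.16. Without I2 the number called was 5. NF2, the upstream activator Merlin, was 1431 to 3094 in eSLCs and 408.4 and 333.1 in SCs, a 5.25-fold difference (log2 2.39, SE 0.287, adjusted p = 0.00131). VGLL4, a TEAD-binding repressor, was 3.01-fold higher (40.36 to 74.17 against 17.14 and 15.27, adjusted p = 0.00354). TEAD2, a paralog of TEAD4, was 19004 to 34913 in eSLCs and 24885 and 22190 in SCs (log2 0.16, adjusted p = 0.635). WWTR1, the coactivator TAZ, was 183.4 to 892.2 in eSLCs and 790.7 and 842.1 in SCs (adjusted p = 0.18).

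Other transcription factors of the trophoblast gave 10 of 19 tested called higher and 1 lower, of 23 in the list, with a median log2 difference of 1.66. Of the 10, ASCL2, DLX4 and OVOL1 entered the test through the eSLC arrays alone. ASCL2, the basic helix-loop-helix factor of trophoblast progenitors, was 9018 in I2, 3535 in I9, 2490 in N2, 7935 in N7, 10263 in P1 and 7724 in P4 and not well above background in SCs (at least 720-fold higher, adjusted p = 9.3e-05). GRHL1, an epithelial factor, was 8393 to 15923 in eSLCs and 20.12 and 34.25 in SCs, a 430-fold difference (adjusted p = 7.72e-06). OVOL1 had a log2 difference of 7.62 (adjusted p = 2.19e-05), with SC signals under the floor, and passed background in SCs on 1 array of 2. DLX5, a homeobox factor, was 66.8-fold higher (adjusted p = 0.00039), and I9 and N2 were its 2 highest lines at 4348 and 4739. FOSL1, an AP-1 subunit, was the gene called lower, at 45.57 to 288 against 1112 and 1558 (8.67-fold lower, adjusted p = 0.023). The rest of those called were ARID3A, CITED1, KLF5, ID2, DLX4 and DLX3.

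Most products of trophoblast cells were called higher as well. Of 25 genes 19 had a probe and 18 were tested, 14 were called higher and 0 lower, and the median log2 difference was 8.77. Of the 14, TKDP1, PAG2, PAG11, PAG12 and TKDP4 entered the test through the eSLC arrays alone. For TKDP1, 1 of the 2 SC arrays was well above background. TKDP1, a trophoblast Kunitz domain protein, was 113494 in N7 to 327315 in N2, with 10.16 and 6.87 in SCs, both under the floor (log2 13.98, SE 0.387, adjusted p = 6.66e-06). PAG2, a pregnancy-associated glycoprotein, was 38028 to 274766 and not well above background in SCs (at least 13500-fold, adjusted p = 7.1e-05). PAG11 was at least 7948-fold higher (26984 to 221535, adjusted p = 0.000164), and SSLP1 4232-fold higher (22846 to 168693 against 18.74 and 18.83, adjusted p = 0.000112). The PAG and TKDP genes are families of close copies, so a probe may bind more than 1 of them. IFNT3, an interferon tau, was not called (adjusted p = 0.128): it was 61498 in N7, 9150 in P4 and 145.8 to 1198 in the other 4 lines, and 111.6 and 59.57 in SCs. I9 and N2 were the 2 highest lines for 5 of the 16 products well above background on all 6 arrays (PAG2, PAG11, PAG12, SSLP1 and TKDP4), and N7 was the lowest for 12 of 16. Over all 9872 genes the shares were 14.3% and 29.3%. Housekeeping genes were mixed: N7 was also the lowest line for ACTB (120651), GAPDH (132618) and RPLP0 (145446), but not for PPIA (91647) or SDHA (50738). The 75th percentile by which signals were divided was highest in N7 (4092 scanner units) and lowest in N2 (1192). What part this divisor has in the order of the lines for the brightest genes, TKDP1 among them, was not tested.

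Markers of the inner cell mass and of the hypoblast were mixed. Of 7 inner cell mass and epiblast markers tested, 2 were called higher and 2 lower. Over all genes tested the shares were 19.7% and 15.7%. SALL4 was 948.1 to 1464 in eSLCs and 15.53 and 15.39 in SCs (79-fold, adjusted p = 1.27e-05), and LIN28A was at least 30.6-fold higher (187 to 315.7). SOX2 was 46.84 to 99.41 against 458.6 and 550.8 (7.53-fold lower, adjusted p = 0.00101), and KLF4 was 5.04-fold lower. POU5F1, chosen after its values were seen, was 898.1 in N7 and 30.72 to 100.8 in the other 5 lines, with 16.26 and 26.02 in SCs (adjusted p = 0.164). NANOG was 5.80 to 35.36 in eSLCs, well above background in 5 of the 6 lines, and not well above background in SCs (adjusted p = 0.208). Among 12 hypoblast markers 3 were called higher and 4 lower, and 4 in all were called when either SC array was left out. AMN was 83.7-fold higher (adjusted p = 0.000284), while TTR was 101-fold (adjusted p = 5.39e-06) and PDGFRA 37.4-fold lower (adjusted p = 0.0102). CUBN was 206.4 and 147.5 in SCs and 2.54 to 12.12 in eSLCs, where all signals lay under the floor and 1 of 6 was well above background. HNF4A, chosen after its values were seen, was 9022 in N7 and 8.17 to 23.39 in the other 5 lines. GATA4, a paralog of GATA2 and GATA3 that also marks the hypoblast, was 2918 in N7 and 23.14 to 179.8 elsewhere (adjusted p = 0.236). In N7, therefore, high HNF4A, GATA4, POU5F1 and IFNT3 stood beside the lowest GATA3, TFAP2A and HAND1, and the part of other cell types in this line was not tested.

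**Figure D5:**
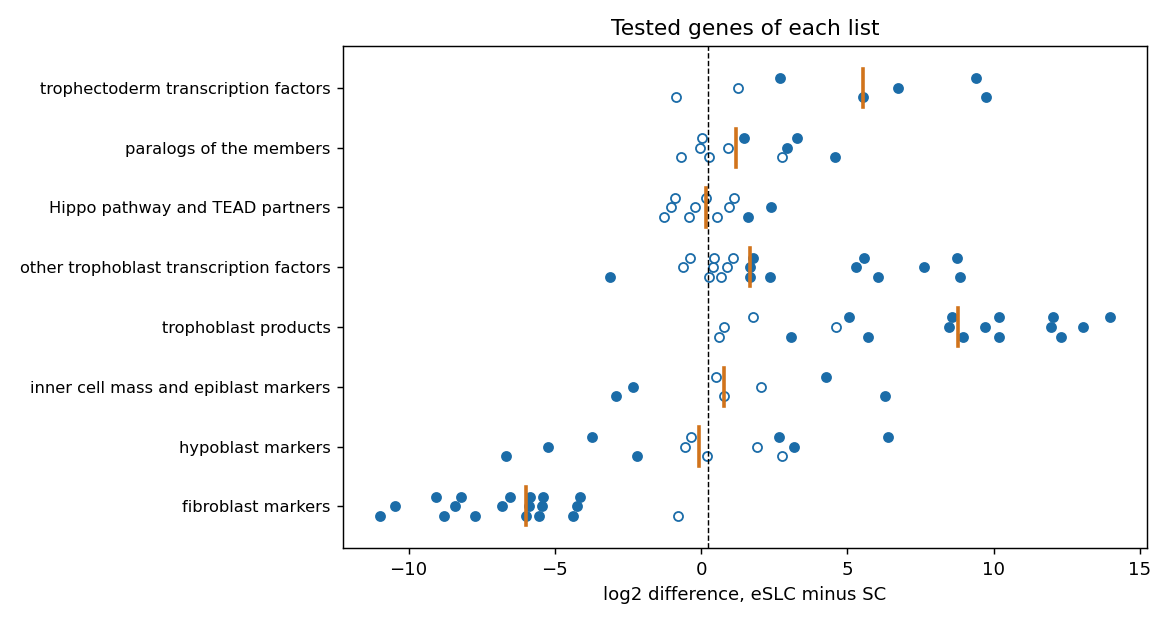
The log2 difference between eSLCs and SCs of every tested gene of each list, filled where called and open where not, with the list's median as an orange bar and the median of all genes tested as a dashed line; vertical offsets within a row only separate points. The median is 5.55 for the trophectoderm factors, 8.77 for trophoblast products, 0.16 for the Hippo pathway and -5.99 for fibroblast markers.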

How the data were processed

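RNA of 6 eSLC lines and 2 SC samples was measured on 8 arrays. The authors scanned them, and deposited linear signal intensities per spot (Feature Extraction output) and a table of linear intensities normalized in GeneSpring by steps not described further. From the 45220 spots of each array, control spots and the 1 to 11 outlier spots were left out. This left 43803 spots and 43653 probes, and the scanner software marked none of them as saturated. The deposited processed signal did not follow the background-subtracted signal of its own row in 6 of 8 files (Spearman's rho 0.0045 to 0.00965 for 33481 probes, 0.99 and 0.989 in I2 and N2), so the background-subtracted signal was used. RefSeq accessions named 26743 probes (12603 genes), and a gene was represented by its brightest probe (mean log2 over the arrays). A gene entered the test if both arrays of 1 or more conditions were well above background (10958 genes). The test was limma 3.58.1 in R 4.3.3, with lmFit and eBayes, 1 mean for each of 4 conditions and all arrays in 1 fit, checked on simulated data. Figures were drawn with matplotlib 3.10.9.

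The members and lists were chosen with earlier results of these data known. Every member is named. Of each other list the up to 4 called genes with the largest difference are named, with others where a count turns on them, and 3 genes most like each member. IFNT3, GATA4, POU5F1, HNF4A, NANOG, VIM, TFAP2B, TEAD2, WWTR1 and the housekeeping genes were named after their values were seen. Alternatives were scaling to the median, quantile normalization, normexp background correction with an offset of 50, a floor 2 times as high, other filters, the mean of all probes, the authors' table, the slide as a block, SCs as 1 sample, only the compared conditions, the methods' t-test and leaving out each array. Normexp used the median signal, since the files used here hold no mean signal. One gene of the lists is not reported by name here. The single probes were added after seeing the data. Promoter motifs were not searched and no sequence is shown, since no sequence table was used here. With 2 arrays per condition, the number of arrays limits the precision.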

Additional observations from a re-analysis of the deposited data

Results flagged for a closer look

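In 50 genes, the 7 tested trophectoderm factors and others from the lists or most like a factor, the 6 eSLC lines were checked for a line far from the others by Dixon's ratio on log2 signals (critical value 0.625 for 6 samples), which chance passes in about 1 of 20 genes. None of the 7 factors had such a line. N7 stood above the other lines for HNF4A (ratio 0.913) and POU5F1 (0.648), and P1 stood below them for SAV1 (0.644), a Hippo pathway scaffold at 12.98 in P1 and 34.75 to 59.13 in the other lines. HNF4A and POU5F1 were named after their values were seen, so the rate of 1 in 20 does not apply to them.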

How the results depend on the processing

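In the mean of the 3 origins, 5 factors were called higher and 0 lower in all alternatives but 2: with genes well above background on all 8 arrays 3 were left, since CDX2 and ELF5 are not tested there, and without N7 the count was 6, with HAND1. The same filter gave 3 in each of the IVP, NT and PA comparisons. The methods' t-test after Benjamini-Hochberg adjustment gave 3 for IVP and 1 for NT, and the values the authors normalized gave 4 for IVP, 4 for NT and 3 for PA. One factor, TFAP2A, was called lower in PA-eSLCs both in the fit of only the conditions compared and in the methods' t-test before adjustment (1 each). TFAP2A in NT-eSLCs against SCs reversed to 0.35 without N7, in a range of -1.77 to 0.35 over the arrays left out. Hippo calls (2) were 1 in the authors' table and with normexp, and 2 to 5 when 1 array was left out (5 without I2). Paralog calls (4) were 1 with SCs as 1 sample and with the higher floor, 2 with the all-array filter, and 1 to 5 when 1 array was left out. Hypoblast calls (7) were 4 with SCs as 1 sample and 4 to 9 when 1 array was left out, and trophoblast product calls (14) were 9 with the all-array filter. The cause was not tested. Between origins 0 factors were called in every alternative. Where an array was left out, the lone array of its condition was assumed to vary like the others. The median log2 difference over all genes moved from 0.229 to 0.187 (median scaling), 0.121 (quantile), 0.162 (normexp) and 0.066 (authors' table). No paired analysis was possible because the replicate numbers follow the order of deposit and pair no arrays.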
